A study of Mus musculus with 17 samples.

Results

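The Hox genes encode homeodomain transcription factors, and the methylation of 40 CCCGGG sites in them was compared between young mice, old mice and old mice on a restricted diet. A site was included when it lay between 1000 bp upstream of the transcription start and the end of 1 of 38 listed Hox genes and carried 50 or more reads in 13 or more of the 17 mice. These 40 sites were part of 18884 autosomal sites with that depth, out of 173449 measured CCCGGG sites. The listed genes held 139 CCCGGG sites at any depth. Hox genes stand in clusters on different chromosomes, and their order along the chromosome matches the order along the body axis in which they are switched on in the embryo. They are rich in CpG and are classical targets of Polycomb repression in cells that do not use them. In blood formation Hoxa9 and Hoxb4 are known for their roles in stem and progenitor cells.

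Whole-blood DNA of inbred C57BL/6 mice was assayed by DREAM, a method that cuts CCCGGG first with SmaI, which methylation blocks, and then with XmaI, which it does not, and reads methylation from the fragment ends. The AL-young group held 5 mice fed ad libitum (2 females, 3 males), all 4 months old. The AL-old group held 7 mice fed ad libitum (5 females, 2 males) of 29 to 33 months, and the CR-old group held 5 mice under caloric restriction (2 females, 3 males) of 32 to 38 months. According to the study's methods the animals came from a rodent colony kept for caloric restriction, and the restriction began early in life. Whole blood is a mixture of cells, so a shift in the share of a cell type and a change of methylation inside cells cannot be told apart. The labelled tissue could hardly be checked, because among the marker genes of blood and other cells only 1, a B cell gene, had retained promoter sites.

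Depth and the calibration of the assay differed between mice. Reads at CCCGGG sites came to 51.6 M in AL-young 30 and to 6.41 to 14.9 M in the others. Hox sites had 20 to 4733 reads per mouse, with a median of 191, and 25 sites had at least 50 reads in every mouse. The deposited tables give methylation in a raw form and in a form adjusted by spiked standards, and in each mouse the odds of methylation differed between these forms by 1 constant factor. This factor was 1.3 or more in 6 mice (CR-old 06 and the 5 AL-old females) and ranged from 0.872 to 3.96 over all mice. Of 14 standard sites that read 5 to 95% in the other 11 mice, 12 read lower in these 6 mice before adjustment and 2 read higher. The standard Luc_1 stood at 13.9% ± 5.78 (SD) in the 6 mice and at 26.9% ± 1.75 in the others, while Gfp_1 stood at 41.7% ± 5.62 and 40.8% ± 3.49. Among AL-old mice, sex, age and this factor cannot be told apart, since both males were 33 months old and had factors below 1.3. Values below are raw percentages unless named adjusted. Raw values include an added 0.5 methylated read, so a site without a methylated read is not listed at 0.

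Retained sites were found in 17 of the 38 genes. Another 20 genes held CCCGGG sites without enough reads, and 1 gene held none. The Hoxa cluster on chromosome 6 contributed 12 sites in Hoxa3, Hoxa4, Hoxa6, Hoxa9, Hoxa11 and Hoxa13. The Hoxb cluster on chromosome 11 contributed 9 sites in Hoxb2, Hoxb4, Hoxb9 and Hoxb13, and the Hoxc cluster on chromosome 15 contributed 6 sites in Hoxc5 and Hoxc12. The Hoxd cluster on chromosome 2 contributed 13 sites in Hoxd1, Hoxd3, Hoxd4, Hoxd9 and Hoxd11. In GENCODE M1, 18 sites lay in coding exons, 9 in introns, 9 upstream of the gene and 4 in untranslated regions. Hoxa3 and Hoxd3 have long gene models, and 8 sites belonged both to one of these and to a shorter neighbour. Each site is named by its nearest gene start and the distance from it in bp.

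The sequences of the 6 sites that gained methylation with age are shown on the strand of the gene, 5′ to 3′, from the mm9 assembly, with the CCCGGG that the assay reads in capitals.
Hoxd11 +3447: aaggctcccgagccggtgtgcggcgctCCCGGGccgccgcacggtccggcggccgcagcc
Hoxd1 +474: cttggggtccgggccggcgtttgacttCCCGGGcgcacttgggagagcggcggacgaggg
Hoxd9 +770: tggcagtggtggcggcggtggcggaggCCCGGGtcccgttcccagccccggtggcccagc
Hoxd11 +3740: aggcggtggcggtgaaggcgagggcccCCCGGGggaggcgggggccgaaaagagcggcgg
Hoxb2 +1621: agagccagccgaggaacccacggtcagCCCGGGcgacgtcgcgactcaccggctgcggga
Hoxa9 +1443: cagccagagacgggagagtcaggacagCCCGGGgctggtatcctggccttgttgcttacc
The Hoxd11 windows covered chr2:74520867-74520926 and chr2:74521160-74521219. The Hoxd9 window was chr2:74536478-74536537 and the Hoxd1 window chr2:74601482-74601541. The Hoxb2 window covered chr11:96214538-96214597. All 5 of these sites lay in coding exons on the plus strand and had 6 to 11 CpG within the 60 bases. The Hoxa9 window, chr6:52179616-52179675 on the minus strand, lay in an intron and had only 2. The sites with the lowest AL-young methylation in the Hoxa and Hoxb clusters are shown for contrast.
Hoxa6 -680: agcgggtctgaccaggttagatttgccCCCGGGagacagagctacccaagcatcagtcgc
Hoxb9 +1207: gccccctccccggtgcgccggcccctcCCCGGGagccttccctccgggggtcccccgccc
The Hoxa6 window (chr6:52162006-52162065, minus strand) lay upstream of the gene, and the Hoxb9 window (chr11:96133949-96134008, plus strand) lay in an intron. Neither site was called in any comparison.

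In AL-young mice, Hox methylation was low at most sites. The AL-young mean was 1% or less at 15 sites, below 5% at 31 sites and 5% or more at 9 sites. The 9 more methylated sites were 2 in an intron of Hoxa9, 2 at the 3′ end of Hoxc5, 1 upstream of Hoxd9 and the 4 sites shared by Hoxd3 and Hoxd4. The clusters differed in level over their retained sites, with AL-young means of 0.627% in Hoxb, 2.26% in Hoxa, 4.92% in Hoxd and 7.80% in Hoxc. Hoxc5 +2220 was the most methylated Hox site at 30.9% ± 3.12 (n = 5), with single mice at 32.0, 31.3, 34.8, 30.1 and 26.2%. The site lies in the untranslated region of Hoxc5, a middle member of its cluster. Hoxd4 -164 was the most methylated Hoxd site at 15.9% ± 1.98, and Hoxa9 +3132 the most methylated Hoxa site at 8.24% ± 1.45. The Hoxb cluster had no such site, as its highest, Hoxb13 -457, stood at 1.88% ± 0.802. At the other end, Hoxa6 -680 had 6 methylated of 5171 reads over the AL-young mice and Hoxb9 +1207 had 4 of 8121. Hoxc5 -1 had 1 of 860, which was the lowest AL-young mean in Hoxc (0.564%) at a depth of 68 to 539 reads per mouse.

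**Figure D1:**
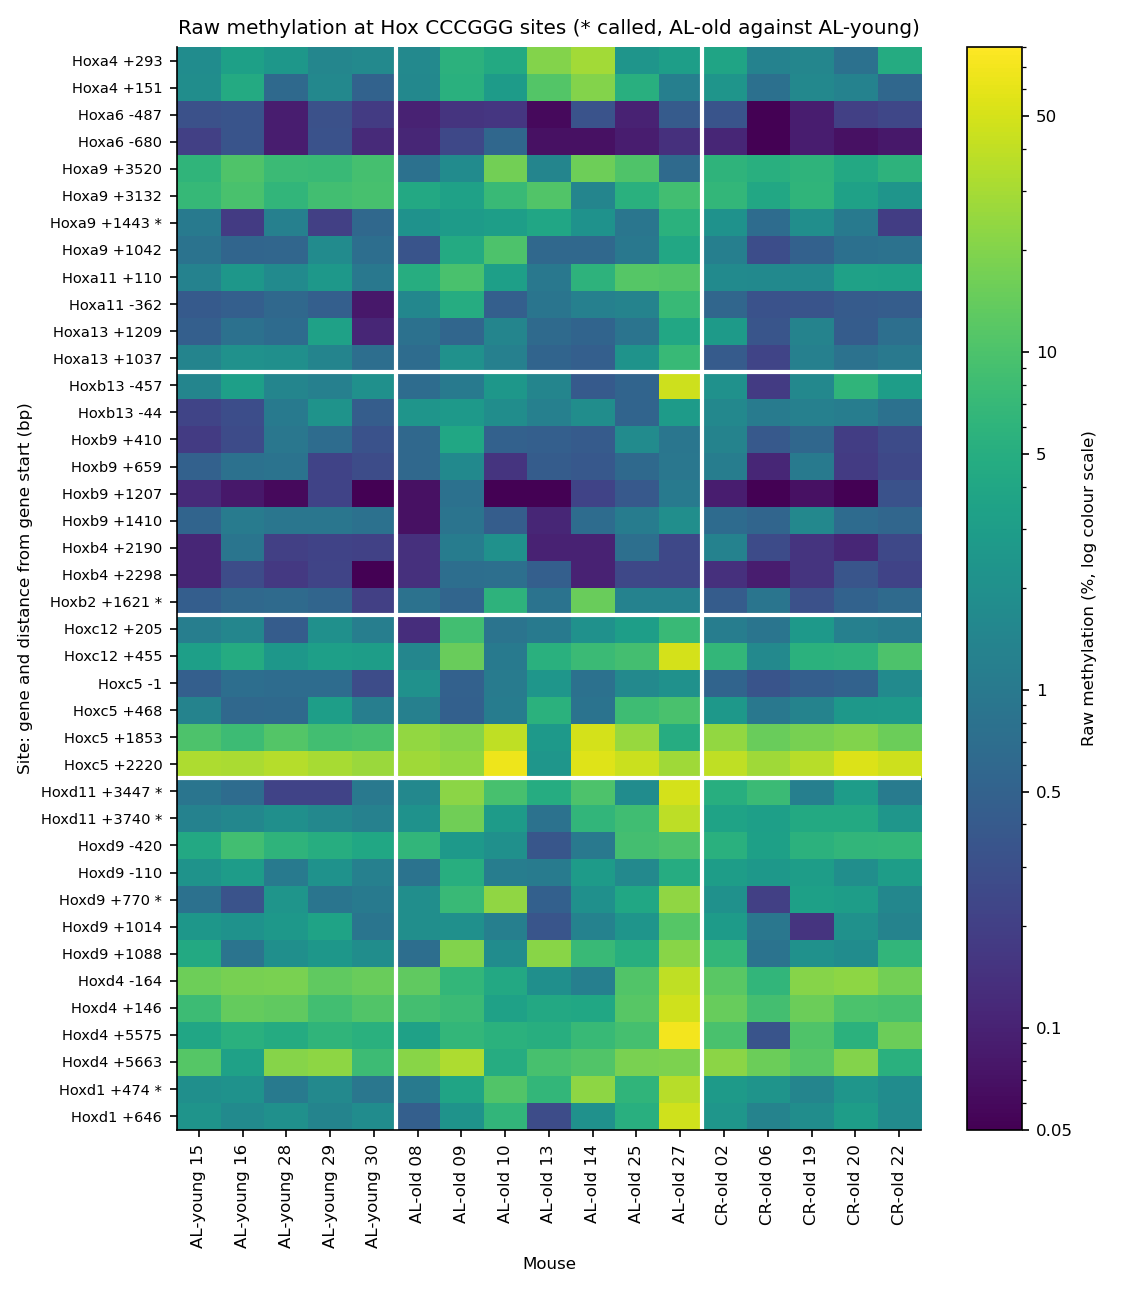
Raw methylation in percent (log colour scale) at 40 Hox sites (rows, grouped by cluster from Hoxa at the top to Hoxd at the bottom) in 17 mice (columns, grouped as AL-young, AL-old and CR-old). A star marks the 6 sites called in AL-old against AL-young; the brightest cells of the Hoxd block belong to AL-old 27, the mouse with the highest mean of 15.7%.

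The comparison of AL-old with AL-young mice addressed how Hox methylation differs with age on an unrestricted diet. Methylation was higher in AL-old mice at 6 Hox sites, in Hoxd11 (2 sites), Hoxd1, Hoxd9, Hoxb2 and Hoxa9, and lower at none. The test was the quasi-likelihood F test of edgeR on methylated and unmethylated reads, adjusted by the Benjamini-Hochberg method over all 18884 sites, and a call also required group means at least 2 points apart. The 6 sites were 15.0% of the Hox sites, against 4% of all sites called higher. No Hox site was called lower by edgeR or by limma, against 6.01% of all sites in edgeR. A site below 2% cannot fall by the required 2 points, so this count says little. The AL-young mean was 3.59% over Hox sites and 28.5% over all retained sites. Of 9957 CpG-rich sites outside Hox genes below 5% in AL-young mice, edgeR called 0.0603% lower. limma called 4 Hox sites higher, or 10.0% against 3.38% of all sites. These were Hoxd11 +3447, Hoxd1 +474, Hoxa9 +1443 and, in place of the other 3, Hoxa11 -362, where only 2 AL-old mice had a methylated read. At an unadjusted p under 0.05, edgeR counted 12 Hox sites in either direction (30.0%), against 22.4% of all sites. Of the 6 sites, 4 were in Hoxd, 1 in Hoxb, 1 in Hoxa and none in Hoxc. The rule for naming sites took 1 per gene, and Hoxd11 +3740 is named in addition, after its values were seen, as the remaining called site.

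Hoxd11, a gene of the posterior axis and the limb, had the largest called difference. At Hoxd11 +3447, which is 407 bp past the nearest annotated transcript start, AL-young mice had 0.88, 0.68, 0.22, 0.22 and 1.00% methylation. The 7 AL-old mice had a lowest value of 1.55%, a median of 9.29% and a highest value of 49.6%. Every AL-old mouse was therefore above every AL-young mouse, but the lowest AL-old values rested on few methylated reads (1 of 96 in AL-old 08 and 2 of 138 in AL-old 25). Group means were 0.60% ± 0.365 (n = 5) and 14.2% ± 17.1 (n = 7), which gave 4.28 as log2 odds ratio (SE 0.896, adjusted p = 0.000465 in edgeR). Hoxd11 +3447 was the only Hox site at which the groups did not overlap, whereas 1.83% of all sites showed that pattern. At Hoxd11 +3740, 293 bp further, AL-young mice had 1.28 to 1.95% and AL-old mice 0.81 to 38.2% with a median of 6.49%. The groups overlapped through AL-old 13 alone, which had 1 methylated of 185 reads. The log2 odds ratio was 2.30 (SE 0.772, adjusted p = 0.0404). This call, unlike that of Hoxd11 +3447, was lost without any 1 of the 5 AL-young mice and without AL-old 09 or AL-old 27 (adjusted p from 0.0570 to 0.117).

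Hoxd1 stands at the opposite, anterior end of the same cluster. At Hoxd1 +474, the deepest of the called sites with 328 to 3425 reads per mouse, AL-young mice had 1.95, 2.12, 1.06, 1.60 and 0.92%. AL-old mice had a lowest value of 1.06%, a median of 6.69% and a highest value of 36.3%, and 6 of 7 were above all AL-young mice. The mean rose from 1.53% ± 0.530 to 12.5% ± 12.6, a log2 odds ratio of 2.68 (SE 0.736, adjusted p = 0.00919). The neighbouring site Hoxd1 +646, 172 bp away and equally deep, was not called, with means of 1.84% ± 0.319 and 9.15% ± 17.02 (adjusted p = 0.621). The mice behind the rise differed between these 2 sites. AL-old 14 had 22.9% at Hoxd1 +474 (129 of 564 reads, 95% Wilson interval 19.6 to 26.5%) and 2.06% at Hoxd1 +646 (11 of 556 reads, 1.11 to 3.51%). AL-old 27 was high at both, with 36.3% and 47.4%.

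Hoxd9 lies between them and belongs to the members that pattern the lower trunk and limb. At Hoxd9 +770, AL-young mice had 0.79, 0.33, 2.36, 0.89 and 1.04%, and AL-old mice ranged from 0.48 through a median of 4.07 to 23.7%. Only 4 of 7 AL-old mice were above the AL-young range, led by AL-old 27 at 23.7% and AL-old 10 at 23.5%. The log2 odds ratio was 2.81 (SE 0.906, adjusted p = 0.0307), and the call was lost without AL-young 15 or 16 or AL-old 09, 10 or 27 (adjusted p from 0.0581 to 0.103). The adjacent Hoxd9 +1014, 244 bp further, had means of 2.32% ± 0.979 and 2.94% ± 3.81 (adjusted p = 1). Hoxd9 +1088, the next site, had a difference of 8.75 points and was not called (adjusted p = 0.107), with as few as 28 reads in a mouse. At Hoxd9 +1014 AL-old 13 had 0 of 142 methylated reads while it had 9 of 43 at Hoxd9 +1088, so sites 74 bp apart were not methylated in step in the same animal.

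Hoxb2 and Hoxa9 completed the called sites. Hoxb2, an anterior Hox gene of the hindbrain, had 1 methylated of 1108 reads in AL-young mice and 14 of 457 in AL-old mice at Hoxb2 +1621. All 14 came from AL-old 10 (7 of 125 reads) and AL-old 14 (7 of 50), and no methylated read was seen in the other 5 AL-old mice. The pooled shares were 0.0903% and 3.06%, and their ratio of 33.9 has a 95% counting interval of 5.16 to 1435. The fitted log2 odds ratio was 3.82 (SE 1.23, adjusted p = 0.0313) and depends on so few reads. The Hoxb2 call was lost without AL-old 10 or 14 or AL-young 15, 29 or 30 (adjusted p from 0.0501 to 0.148). It was also lost with the factor group as a covariate (log2 odds ratio 0.78, adjusted p = 0.887), in mice with low factors only (0.21, adjusted p = 0.888), with sex as a covariate (2.85, adjusted p = 0.282) and in limma (2.02, adjusted p = 0.0693). Hoxa9, the leukaemia-associated gene of myeloid progenitors, had 1 called site, Hoxa9 +1443, which rose less but in more mice. Its other sites were not called. The AL-old mean was below the AL-young mean at Hoxa9 +3520 (6.79% against 8.14%) and Hoxa9 +3132 (5.91% against 8.24%). At Hoxa9 +1042 it was above (3.04% against 0.886%). Over the 4 sites the means were 4.67% (AL-old) and 4.48% (AL-young), a difference of 0.19 points. At Hoxa9 +1443, AL-young mice had 1.05, 0.18, 1.26, 0.20 and 0.60%. AL-old mice had a lowest value of 0.91%, a median of 2.84% and a highest value of 5.56%, with 6 of 7 above the AL-young range. The log2 odds ratio was 2.30 (SE 0.782, adjusted p = 0.0431), and 10 of the 17 mice could not be left out without losing the call, namely AL-young 15, 16, 29 and 30, AL-old 09, 10, 13 and 27 and CR-old 19 and 20 (adjusted p from 0.0504 to 0.133). This site was the only called one outside a CpG-rich window, with 18 CpG in 500 bp.

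**Figure D2:**
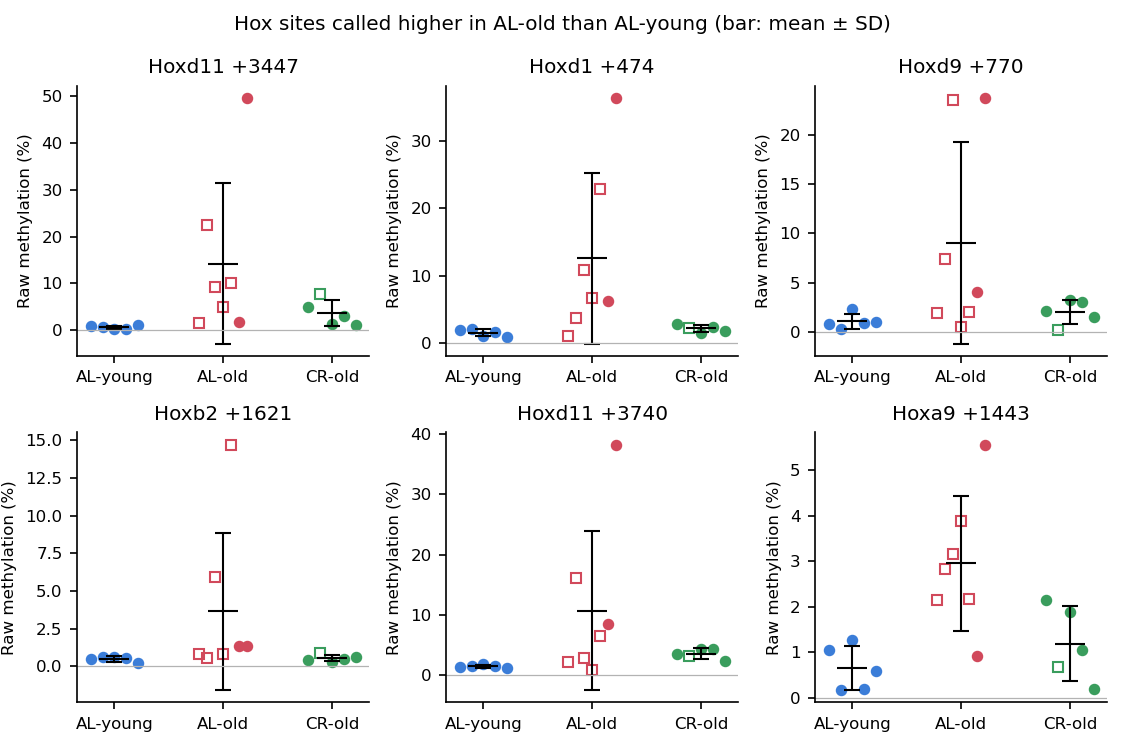
Raw methylation (%) of each mouse at the 6 Hox sites called as gains with age, by group, with mean and SD. Filled circles are mice with a standards factor below 1.3 and open squares those at 1.3 or more; at Hoxd11 +3447 AL-old mice ran from 1.55 to 49.6% and AL-young mice from 0.22 to 1.00%.

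Most Hox sites that were not called had a higher mean in AL-old mice. The AL-old mean exceeded the AL-young mean at 33 of 40 Hox sites in raw values, at 32 when the added 0.5 read was left out and at 39 in adjusted values. In raw values the AL-old mean was higher at 82.5% of Hox sites and at 46.3% of all retained sites. It was higher at 62.4% of 9957 CpG-rich sites outside Hox genes below 5% in AL-young mice. The median difference was 2.08 points over Hox sites, -0.0174 points over all retained sites and 0.0446 points over those CpG-rich sites. The difference reached 2 points at 21 Hox sites, and at 10 once the highest AL-old mouse of each site was left out. The largest difference of all, 14.6 points at Hoxc5 +1853, was not called (adjusted p = 0.277). There AL-old mice spread from 2.64 to 50.0%, to both sides of the AL-young range of 7.80 to 11.2%. Hoxa11 -362 had no methylated read in AL-young mice (0 of 1085) and 4 of 360 in AL-old mice (adjusted p = 0.0543 in edgeR, difference 2.08 points). These came from AL-old 09 (3 of 72 reads) and AL-old 27 (1 of 20). Depth was 20 to 105 reads in AL-old and 82 to 665 in AL-young mice. The added 0.5 read weighs more at low depth, as with 1.52% in AL-old 08 from 0 of 32 reads, and enters this difference and the limma call. Hoxd4 -164 had the lowest AL-old mean relative to AL-young mice in raw values, 11.1% ± 13.2 against 15.9% ± 1.98 (adjusted p = 0.256). The difference was -10.5 points for the AL-old mice with high factors and 9.18 points for the 2 with low ones. Those 2 mice did not go together, as AL-old 25 stood at 10.9% and AL-old 27 at 39.4%. The positive sign therefore came from AL-old 27 and cannot be assigned to the factor. Adjusted means were 15.5% ± 13.8 (AL-old) and 16.4% ± 1.97 (AL-young). In raw values 6 AL-old mice at 1.20 to 13.2% lay below the AL-young minimum of 13.4%, with AL-old 27 above the range at 39.4%.

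**Figure D3:**
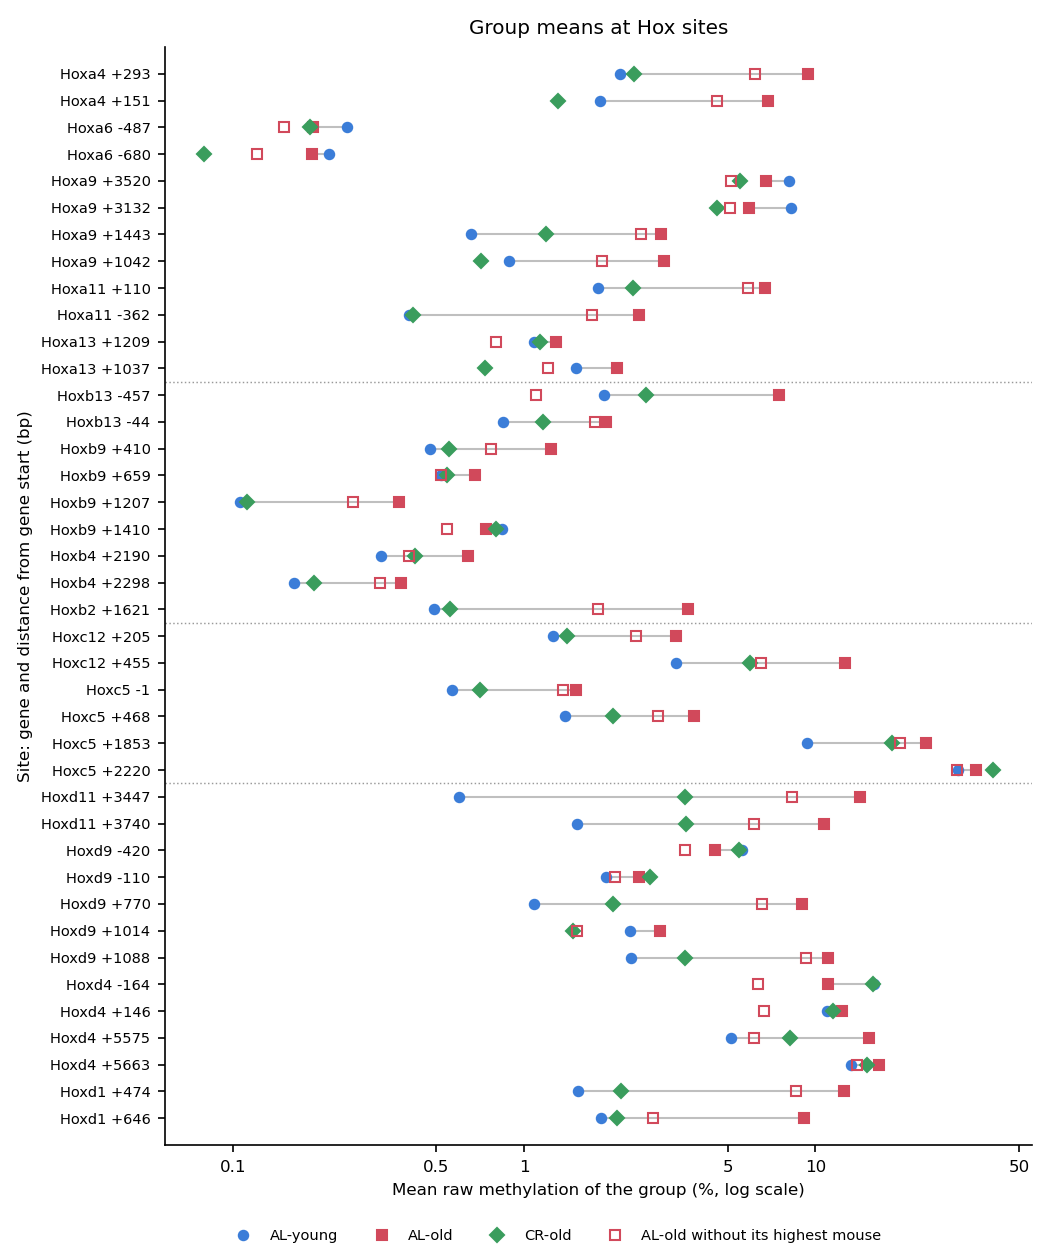
Mean raw methylation (%, log scale) of AL-young (circles), AL-old (filled squares) and CR-old (diamonds) mice at 40 Hox sites, with open squares for AL-old without the highest mouse of that site. The AL-old mean lies to the right of the AL-young mean at 33 sites and of the CR-old mean at 35.

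AL-old mice varied far more than the other groups at Hox sites. The median SD over the 40 sites was 0.730 points in AL-young, 3.92 in AL-old and 0.801 in CR-old mice. The AL-old SD exceeded the AL-young SD at 38 sites and the CR-old SD at 39. Single mice decided much of this spread. AL-old 27 was the highest AL-old mouse at 21 of 40 sites and averaged 15.7% over all Hox sites, while the other 6 AL-old mice averaged 3.32 to 7.33%. The same mouse was also the highest AL-old mouse at 50.4% of 9957 CpG-rich sites outside Hox genes that stood below 5% in AL-young mice, with a mean of 4.77% against 0.597 to 1.89% in the other AL-old mice. Over all retained sites the median SD was also widest in AL-old mice, at 1.45 points against 0.411 in AL-young and 0.571 in CR-old mice. Among the Hox sites, AL-old 27 exceeded the AL-young maximum by more than 2 points at 19. The other AL-old mice did so at 2 to 14 Hox sites, against 2 to 5 in CR-old mice. Over all Hox sites the mean was 3.59% ± 0.362 in AL-young, 6.95% ± 4.13 in AL-old and 4.35% ± 0.834 in CR-old mice. Without AL-old 27 the AL-old mean was 5.49%.

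The clusters contributed unequally to these means. In Hoxd, AL-young mice had 4.58, 4.71, 5.86, 5.37 and 4.07%, AL-old mice had a lowest value of 4.40%, a median of 6.09% and a highest value of 32.2%, and CR-old mice had 7.08, 4.09, 6.26, 6.69 and 5.58%. AL-old 27 alone raised the AL-old mean there from 6.49% to 10.2%. In Hoxa, 6 of 7 AL-old mice (3.42 to 6.48%) were above all AL-young mice (1.91 to 2.92%), and CR-old mice were at 1.26 to 2.34%. Hoxc, the most methylated cluster over its retained sites, had 7.80% ± 0.573 in AL-young, 13.5% ± 5.73 in AL-old and 11.5% ± 2.39 in CR-old mice. This level came mostly from Hoxc5 +2220 and Hoxc5 +1853, with AL-young means of 30.9% and 9.40%. The other Hoxc sites had AL-young means of 0.564 to 3.33%. Hoxb stayed lowest in all groups, at 0.627% ± 0.176, 1.90% ± 1.97 and 0.773% ± 0.257.

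**Figure D4:**
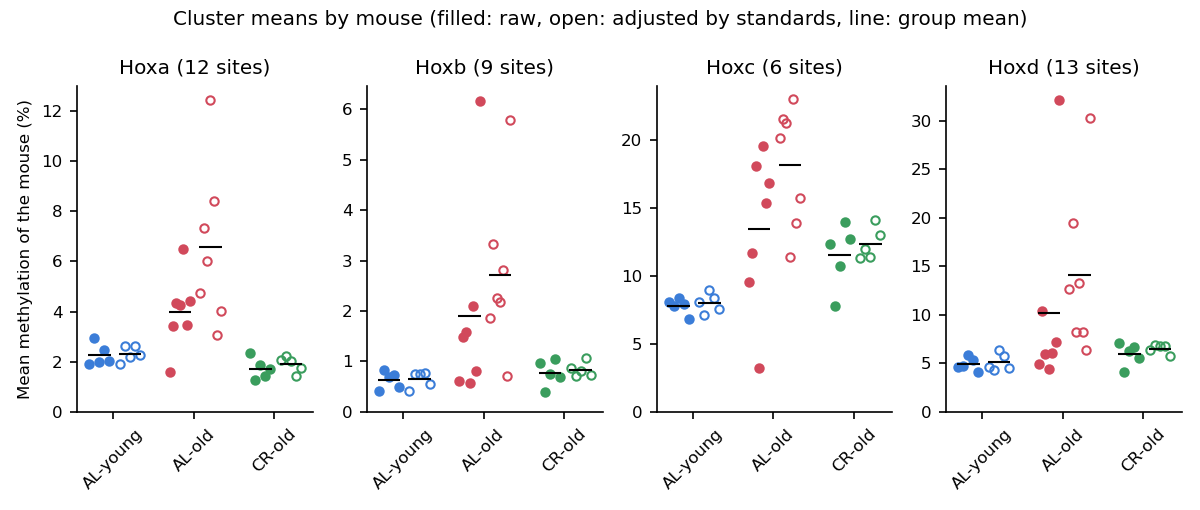
Mean methylation of each mouse over the sites of the Hoxa, Hoxb, Hoxc and Hoxd clusters (%), raw (filled) and adjusted by the spiked standards (open), with a line at each group mean. In Hoxd, AL-old 27 stands at 32.2% in raw values; in Hoxa 6 of 7 AL-old mice lie above the AL-young mice.

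Values adjusted by the standards gave the same order of groups with a wider distance. Adjusted means over all Hox sites were 3.70% ± 0.417 in AL-young, 9.88% ± 3.06 in AL-old and 4.73% ± 0.202 in CR-old mice, and the AL-old range of 5.23 to 14.7% lay above both other groups. With the factor as an offset, edgeR called 12 Hox sites higher in AL-old mice, and the share of all sites called higher also rose, to 7.67%. At Hoxd11 +3447 the mean of the 5 AL-old females with high factors was 9.05 raw points above AL-young mice. That of the 2 males with low factors was 25.1 points above. At Hoxd1 +474 these differences were 7.52 and 19.8 points. The values of the males came mostly from AL-old 27, with 49.6% and 36.3% at the 2 sites, while AL-old 25 had 1.80% and 6.29%. At Hoxb2 +1621 they were 4.08 points in the females and 0.830 in the males, the smaller value coming from males without a methylated read.

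The called Hox sites stood in CpG-dense sequence. Their 500-bp windows held a median of 54 CpG, against 28 at the other Hox sites. Coding exons held 5 of the 6, and also 18 of the 40 Hox sites, with a median of 49.5 CpG. None of the 9 upstream sites and 4 sites in untranslated regions was called, numbers too small to tell a difference. Among CpG-rich sites below 5% in AL-young mice, 5 of 20 Hox sites (25.0%) and 600 of 9957 other sites (6.03%) were called higher in AL-old mice, with median differences of 2.81 and 0.0446 points. The 2 sets were not matched for starting level or depth. Their median AL-young levels were 1.17% and 0.298%, and their median reads 237.5 and 400. From a higher start the same odds ratio gives a larger difference in points, so the 2-point rule is easier to pass. The 9 Hox sites at 5% or more in AL-young mice gave no call in either direction. These shares are descriptions, as the genes were listed with results of these data known.

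**Figure D5:**
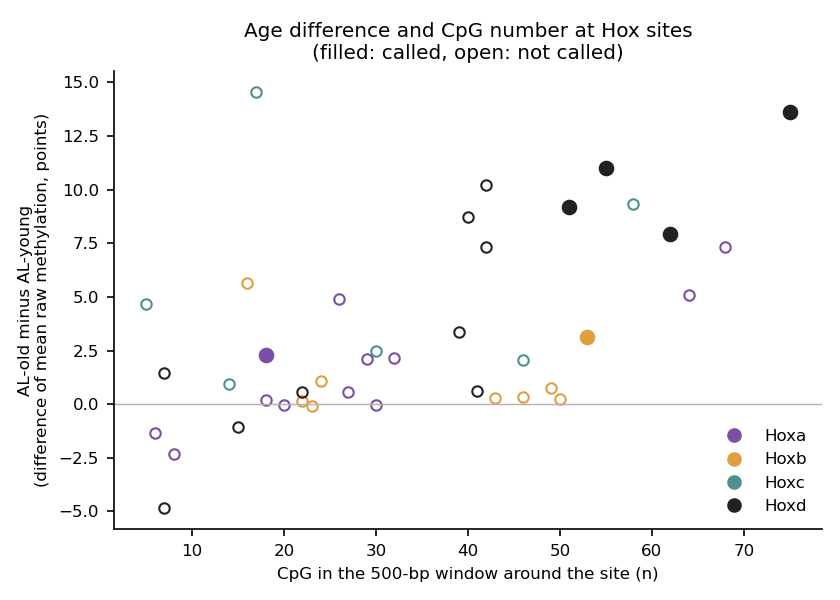
Difference of mean raw methylation between AL-old and AL-young mice (points) against the number of CpG in the 500-bp window around each of the 40 Hox sites, coloured by cluster, with called sites filled. The 6 called sites have a median of 54 CpG; the highest point, Hoxc5 +1853, has 17 CpG and was not called.

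The comparison of CR-old with AL-old mice addressed whether restricted feeding went with a different Hox methylation at old age. No Hox site was called by edgeR or limma in either direction, against 1.58% of all sites called higher in CR-old mice and 1.76% called lower. At an unadjusted p under 0.05, edgeR counted 9 Hox sites (22.5%), against 15.8% of all sites. The CR-old mean was below the AL-old mean at 35 of 40 sites in raw values, 33 without the added 0.5 read and 39 in adjusted values. In raw values the CR-old mean was above the AL-old mean at 12.5% of Hox sites and 45.29% of all sites. It was above at 34.45% of 9957 CpG-rich sites outside Hox genes below 5% in AL-young mice. The median difference was -1.52 points over Hox sites and -0.0223 over all sites. The difference of the means over all Hox sites was -2.60 points, and -1.14 points without AL-old 27. This comparison shares its AL-old mice with the comparison by age, so a site with high AL-old mice moves both.

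The sites with the largest differences were Hoxd11 +3447, Hoxd1 +474 and Hoxd9 +1088, none of them called. CR-old mice had 5.03, 7.61, 1.22, 2.94 and 1.08% at Hoxd11 +3447, a mean of 3.58% ± 2.77, or -10.7 points relative to AL-old mice (log2 odds ratio -1.75, SE 0.815, adjusted p = 0.263). Both groups overlapped there. At Hoxd1 +474, CR-old mice had 2.82, 2.30, 1.44, 2.44 and 1.79%, and 6 of 7 AL-old mice were higher than all of them. The mean was 2.16% ± 0.545, with a difference of -10.4 points (log2 odds ratio -2.12, SE 0.727, adjusted p = 0.0856). Hoxd9 +1088 had 6.65, 0.83, 2.07, 1.81 and 6.48% in CR-old mice, a difference of -7.50 points (log2 odds ratio -1.69, SE 0.858, adjusted p = 0.325). Adjusted for the factor as an offset, 6 Hox sites were called lower in CR-old mice, among them Hoxd1 +474 (adjusted p = 0.00396) and Hoxd11 +3447 (adjusted p = 0.0415). With that offset 6.88% of all sites were called lower. At Hoxd4 -164 the CR-old mean of 15.8% ± 6.66 was 4.71 points above the AL-old mean in raw values and 1.41 points above it in adjusted values.

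The group means of CR-old and AL-young mice lay within 2 points at 32 of 40 Hox sites. The AL-young mean was below 5% at 31 sites and 1% or less at 15, so a small distance in points says little there. The median difference was 0.146 points over Hox sites and -0.058 over all sites. No Hox site was called by edgeR or limma between them, against 0% of all sites called higher and 0% called lower in edgeR. At an unadjusted p under 0.05, edgeR counted 2 Hox sites (5%), against 6.84% of all sites. Every CR-old mouse was above every AL-young mouse at 3 Hox sites, Hoxd11 +3447, Hoxd11 +3740 and Hoxc5 +1853, a pattern seen at 1.09% of all sites, and at 2 Hox sites when the added 0.5 read was left out. At Hoxc5 +1853, CR-old mice had 24.1, 14.9, 17.9, 19.5 and 15.3%, and AL-young mice had 10.2, 7.80, 11.2, 8.47 and 9.28%. The fit across all sites gave an adjusted p of 0.724 for it. At Hoxd11 +3740, CR-old mice had 2.41 to 4.44% against 1.28 to 1.95% in AL-young mice (adjusted p = 0.717). When the AL-old mice were left out of the fit, these same 3 sites were called higher in CR-old mice, along with 0.842% of all sites, and 6.32% of all sites were called lower.

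Genes that border the clusters, help Hox proteins or regulate them were read the same way. Neighbours of the clusters had 11 retained sites, of which 3 rose with age (27.3%, against 4% of all sites). All 3 were in Evx2, an even-skipped homeobox gene that adjoins the posterior end of Hoxd. At chr2:74494067-74494072 AL-young mice had a mean of 0.334% ± 0.241 and AL-old mice one of 10.2% ± 11.8 (log2 odds ratio 5.37, adjusted p = 5.14e-05). CR-old mice had 2.28% ± 1.14 there. ParaHox and caudal genes, relatives of the Hox genes, had 14 sites with 1 rise (7.14%), at Cdx2 (0.698% ± 0.323 to 4.96% ± 5.10, adjusted p = 0.0356). edgeR called none of 20 sites in TALE cofactors of Hox proteins (5 at an unadjusted p under 0.05, and 1 called by limma). It also called none of 24 sites in retinoic acid signalling, which acts on Hox genes in the embryo (2 unadjusted, and 0 by limma). Of all sites, 4% were called higher, 6.01% lower and 22.4% had an unadjusted p under 0.05 in edgeR, so lists this short would hold few calls. Among 35 sites of Polycomb and trithorax regulators, 3 (8.57%, against 6.01% of all sites) fell and none rose, in Phc2 (34.0% ± 2.97 to 11.1% ± 12.8, adjusted p = 0.00572), Pcgf2 and Kdm6b. limma called 4 sites in neighbours of the clusters, 1 in Polycomb and trithorax regulators and none in ParaHox and caudal genes, so the Cdx2 call rests on edgeR.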

How the data were processed

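DNA methylation was measured by DREAM in whole blood of 17 mice, and groups came from the labels. Per the labels, standards of known methylation were added before digestion. According to the study's methods the authors mapped reads to mm9, on more than one sequencer and at more than one centre, and no label ties a mouse to a sequencer. The submitters' processing notes name Bowtie2 and SAMtools, and mm9 and mm10 among builds. The authors deposited counts of methylated and unmethylated reads per CCCGGG site and mouse. They also deposited methylation in percent, raw and adjusted by the standards. The raw percent equalled 100 times methylated reads plus 0.5 over all reads plus 1, within 0.005 points. All 173449 deposited positions lay on a CCCGGG of the mm9 genome.

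Hox sites were placed by GENCODE M1. Autosomal sites entered the fit when 13 or more of the 17 mice had 50 reads or more, with all mice kept, also those with fewer reads. Counts were tested with edgeR 4.0.16 (R 4.3.3), with 1 coefficient per mouse, 1 dispersion for all sites and contrasts between the 3 groups, and limma 3.58.1 was an alternative. A call needed a Benjamini-Hochberg adjusted p-value under 0.05 over all 18884 sites and group means of raw methylation at least 2 points apart. P-values rest on separate mice. A window was called CpG-rich when its 500 bp held 50% GC or more and its CpG number was 0.6 or more of that expected from base composition. Named sites were the called sites with the largest differences (at most 1 per gene), the 3 largest differences where fewer were called, and the highest and lowest AL-young site per cluster. The Hox genes and the other gene lists were chosen with earlier results of these data known.

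At 50 reads a value of 2% has a 95% Wilson interval from 0.354 to 10.5%, and a count of 0 allows up to 6%. Intervals cover counting error only, since reads carried no molecular identifiers. Reads were simulated with overdispersion 0.01, and 200 of 4000 sites differed between AL-old and AL-young by 3 on the log2 odds scale. The edgeR script recovered 185 of these (92.5%) with 5 false calls. The simulation used that 1 value, while the real groups differed in spread. At Hox sites the median SD was 3.92 points for AL-old mice but 0.73 for AL-young mice. Recovery and false calls under such unequal spread were not tested, so these rates do not describe the Hox comparison. Alternatives were the standards factor as an offset or covariate, mice with low factors only, sex, other depths, limma, fewer groups in the fit, no 2-point rule and leaving out each mouse. Python 3.11.15 with numpy 2.4.6, pandas 2.3.3, scipy 1.17.1 and matplotlib 3.10.9 was used for the other steps.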

Additional observations from a re-analysis of the deposited data

Results flagged for a closer look

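Dixon's test for a value far from the rest of its group was applied to 54 groups of mice over 18 Hox values, and 9 were marked, 5 of them for AL-old 27. Chance marks about 1 in 20 groups. AL-old 27 had the highest mean over all Hox sites (15.7%, next 7.33%), over Hoxb (6.18%, next 2.10%) and over Hoxd (32.2%, next 10.4%). It also stood apart at Hoxb13 -457 (46.0% from 37 reads, next 2.50%) and at Hoxd4 -164 (39.4% from 46 reads, next 13.2%). AL-old 14 stood apart at Hoxb2 +1621 (14.7%, 7 of 50 reads, next 5.95%). AL-old 10 was high at Hoxa6 -680 (0.58%, 5 of 947 reads, next 0.25%). CR-old 22 was high within its group at Hoxb9 +1207 (0.32%, 2 of 785 reads, next 0.09%) and at Hoxc5 -1 (1.70%, 1 of 87 reads, next 0.54%). No other CR-old mouse had a methylated read at either site, so their values come from the added 0.5 read. The rate of 1 in 20 need not hold for such values.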

How the results depend on the processing

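The 6 Hox sites called as gains with age (all sites 4%) became 12 with the standards factor as an offset (7.67%). In mice with low factors only there were 9 (9.23%), of which 4 were among the 6. That fit held AL-old 25 and AL-old 27 as its only AL-old mice. With the factor group as a covariate there were 6 (5.08%), of which 4 were among the first 6. There were 4 in limma (3.38%) or with sex as a covariate (4.33%), and 2 when only AL-young and AL-old mice entered the fit (3.18%). Leaving out 1 mouse at a time gave 2 to 7, with 2 without AL-young 15 and 3 without AL-young 16, 29 or 30 or without AL-old 09. Without AL-old 27 there were 4, of which 3 were among the 6. Hoxd11 +3447 and Hoxd1 +474 kept their call in all 25 alternatives. Hoxd9 +770 lost it in 7, Hoxd11 +3740 in 9, Hoxa9 +1443 in 14 and Hoxb2 +1621 in 10 of 24, among them the fits with sex or the factor group as a covariate for Hoxb2 and Hoxa9, and none of the named sites reversed. Sites called lower in AL-old mice became 1 at a depth of 20 reads. Sites called lower in CR-old than AL-old mice became 6 with the offset (all sites 6.88%), 3 in mice with low factors only (2.31%) and 1 at a depth of 20 reads, and 0 to 1 when mice were left out. The 1 was Hoxd1 +474, without AL-old 08 or AL-old 25. For CR-old against AL-young, 3 sites were called higher when only these groups entered the fit (all sites 0.842%, and 6.32% lower). The mean difference over Hox sites, 3.36 points by age, was 6.17 in adjusted values, 7.19 in mice with low factors (2 AL-old mice) and 1.90 without AL-old 27, within 1.90 to 3.96 when mice were left out. By diet it was -2.60 points, -5.15 adjusted, -6.09 with low factors and -3.20 to -1.14 when mice were left out. Shares without the added 0.5 read, an alternative chosen after seeing the data, gave 3.20 by age and -2.42 by diet. The causes of these shifts were not tested. No paired analysis was possible because the mouse numbers of the groups differ. Sites with under 50 reads in a mouse limit what small differences can be seen there.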
